A study of Mus musculus with 15 samples.

Results

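Splicing regulators were examined in splenic CD8+ T cells of Susd2-/- and wild-type (WT) mice, before and after stimulation with antigen. The set was taken by gene symbol: the SR proteins (Srsf followed by a number), the heterogeneous nuclear ribonucleoproteins (hnRNPs, Hnrnp followed by a letter), the CDC-like kinases Clk1 to Clk4, and Tra2a and Tra2b. It held 37 of the 27019 genes in the table: 11 SR proteins, 20 hnRNPs, 4 Clk kinases and 2 Tra2 proteins. The pseudogenes Hnrnpa1l2-ps and Hnrnpa1l2-ps2, with 32 and 43 counts over all libraries, were left out. All 37 genes were among the 16057 that passed the filter on low counts, and 36 of them, all but Srsf12, had a mean log2 CPM (counts scaled to a common library size, TMM-adjusted) of 5 or more; genes past that level are called high-level genes here.

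The mice were C57BL/6 animals of 8-10 weeks, and every group, the WT included, carried the OT-I T cell receptor transgene, which makes CD8+ T cells specific for a peptide of ovalbumin. There were 4 groups with 2 libraries each: WT at day 0, Susd2-/- at day 0, WT at day 3 and Susd2-/- at day 3. Day 0 cells were left untreated and day 3 cells came from splenocytes exposed to OVA257-264, so a day 3 value differs from a day 0 value in culture, time and antigen together. CD8+ T cells were enriched with a bead kit and not sorted, and no label says that libraries of a group came from different mice, so the spread between libraries may be technical. Susd2 itself, the gene of a sushi domain protein of the cell membrane, gave 90 and 80 counts at day 0 in WT and 1 and 3 in Susd2-/-, and 16 and 10 against 0 and 2 at day 3.

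SR proteins bind exonic sequences of a pre-mRNA through an RNA recognition motif and, through a tail rich in arginine and serine, help the spliceosome to choose nearby splice sites. The hnRNPs coat nascent transcripts, and many of them oppose SR proteins at the same exons, besides acting in RNA export, stability and translation. Clk kinases phosphorylate SR proteins in the nucleus and release them from nuclear speckles, and Tra2 proteins are SR-like activators of exon inclusion. Many of these genes carry exons whose inclusion or skipping sends their own transcript to nonsense-mediated decay. In T cells Hnrnpll is known as the regulator that switches Ptprc, which encodes CD45, to its short isoform on activation.

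Promoter windows (250 bases before to 50 after the start of the gene, RefSeq, GRCm38.p6) were found for 34 of the 37 genes; Clk1, Hnrnpll and Hnrnpul2 had none. Windows of 3 genes with contrasting patterns are printed here. They are Hnrnpab, with the largest fitted rise at day 3 in WT, Clk4, which fell at day 3 and lies on the same stretch of chromosome 11, and Tra2a, which differed most between the genotypes at day 0 among the called genes. Capitals mark the motifs found on either strand. They are the CCAAT box, the GC box (GGGCGG), the core of the cAMP response element (CRE, with the letters TGACGT) and the TATA box (TATAAA). The Hnrnpab window lies at chr11:51606832-51607131 on the minus strand, that of Clk4 at chr11:51262864-51263163 on the plus strand, and that of Tra2a at chr6:49264003-49264302 on the minus strand.
Hnrnpab: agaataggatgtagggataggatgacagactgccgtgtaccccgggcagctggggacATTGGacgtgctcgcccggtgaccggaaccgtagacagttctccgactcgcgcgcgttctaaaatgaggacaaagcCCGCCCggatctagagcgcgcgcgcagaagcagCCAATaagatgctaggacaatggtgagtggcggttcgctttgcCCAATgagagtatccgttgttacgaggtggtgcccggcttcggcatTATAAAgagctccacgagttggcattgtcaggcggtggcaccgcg
Clk4: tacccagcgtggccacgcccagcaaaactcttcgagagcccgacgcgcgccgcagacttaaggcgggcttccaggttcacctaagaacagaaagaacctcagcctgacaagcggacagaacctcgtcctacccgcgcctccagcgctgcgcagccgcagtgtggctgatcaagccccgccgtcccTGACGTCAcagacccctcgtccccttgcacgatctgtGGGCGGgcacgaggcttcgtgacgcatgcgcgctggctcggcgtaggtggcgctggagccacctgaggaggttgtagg
Tra2a: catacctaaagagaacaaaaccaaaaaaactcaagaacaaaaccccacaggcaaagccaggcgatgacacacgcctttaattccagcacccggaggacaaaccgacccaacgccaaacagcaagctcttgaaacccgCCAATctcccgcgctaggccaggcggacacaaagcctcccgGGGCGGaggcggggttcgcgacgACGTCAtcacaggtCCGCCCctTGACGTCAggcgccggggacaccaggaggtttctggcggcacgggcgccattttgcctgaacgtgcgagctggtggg
The Hnrnpab window held 3 CCAAT boxes, 1 GC box and 1 TATA box. The Clk4 window held 1 GC box and 2 overlapping CRE core matches, which together form the palindrome TGACGTCA, and the Tra2a window held the same palindrome, 1 more CRE core, 2 GC boxes and 1 CCAAT box.

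The CRE core was present in 11 of the 34 windows (32.4%), against 7.65% of all 27018 windows and 14.2% of the 4721 windows of high-level genes. Those 11 were Clk4, Hnrnpa2b1, Hnrnpa3, Hnrnph1, Hnrnph2, Hnrnpm, Srsf3, Srsf6, Srsf11, Tra2a and Tra2b. CCAAT stood in 18 windows (52.9%, against 37.9% of all and 39.2% of the high-level ones), and the GC box in 28 (82.4%, against 35.9% and 68.6%). The E-box CACGTG was found in 5 windows (14.7%, against 7.24% and 11.1%), the ETS motif CCGGAAG in 7 (20.6%, against 9.12% and 23.3%), the AP-1 motif TGANTCA in 1 (2.94%, against 7.94% and 4.09%) and TATAAA in 4 (11.8%, against 14.2% and 6.61%). These are letter matches in short windows and no measure of binding.

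In the GENCODE vM21 annotation of GRCm38, 25 of the 37 genes (67.6%) had at least 1 transcript labelled for nonsense-mediated decay, against 28.9% of the 12294 protein-coding genes tested. A retained-intron transcript was annotated for 28 (75.7%, against 58.9%). Counts were per gene, so productive and unproductive transcripts were added together, and a gene's count is not a measure of its protein-coding transcript alone. Several of the genes neighbour each other: Hnrnpd and Hnrnpdl lie 54.6 kb apart on chromosome 5, Hnrnpll and Srsf7 138 kb apart on chromosome 17, Hnrnpa0 and Hnrnpk 263 kb apart on chromosome 13, and Clk4 and Hnrnpab 318 kb apart on chromosome 11. Another gene overlaps 15 of the 37 on the opposite strand, Clk4, Hnrnpab, Hnrnpu, Srsf1, Srsf2 and Tra2a among them. No source used here gives the strand setting of the counting, so reads of such a pair may not have been told apart. Hnrnpa1 has near-identical processed copies in the genome, and whether reads that align to more than 1 place were counted is not given either, so its count is uncertain.

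Library totals ran from 26829807 to 53846911 counts. The Susd2-/- day 3 library 2, the deepest, stood apart from the other 3 libraries of day 3. Its log2(CPM + 0.5) for Hnrnpa0, the 1 gene of the set with a single coding exon, was 1.65 below their mean, and of the 5920 high-level genes only 3, Hnrnpa0 included, were at or below that. Hnrnpul2 (-0.77), Srsf9 (-0.59) and Hnrnpab (-0.51) were also more than 0.5 below, whereas no gene of the set was that low in any of the other 7 libraries. Over 11047 genes the difference of this library from the other 3 correlated negatively with the GC content of the transcripts (Pearson r -0.32 across genes, which are not independent replicates), with medians from 0.09 for genes under 40% GC to -0.21 for genes over 60%. WT day 3 library 2 had an r of 0.25 and the other day 3 libraries 0.04 and 0.01. The GC content of Hnrnpa0 is 55.4%, and the part of GC content in its difference was not tested. Over the 37 genes the chi-square per degree of freedom between the Susd2-/- libraries of day 3 was 380.4, against 28.0 between the WT libraries of day 3, 5.36 and 3.19 between the Susd2-/- and the WT libraries of day 0, and 1.81 to 4.12 between lanes of a library. Over these 37 genes the WT day 0 libraries thus differed by as little as lanes did, and the Susd2-/- day 0 libraries by more. Over all genes the value was 3.37 between the WT and 6.30 between the Susd2-/- libraries of day 0, against 3.01 to 3.17 between lanes. Results are also given with the day 0 libraries of each genotype counted as 1.

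**Figure D1:**
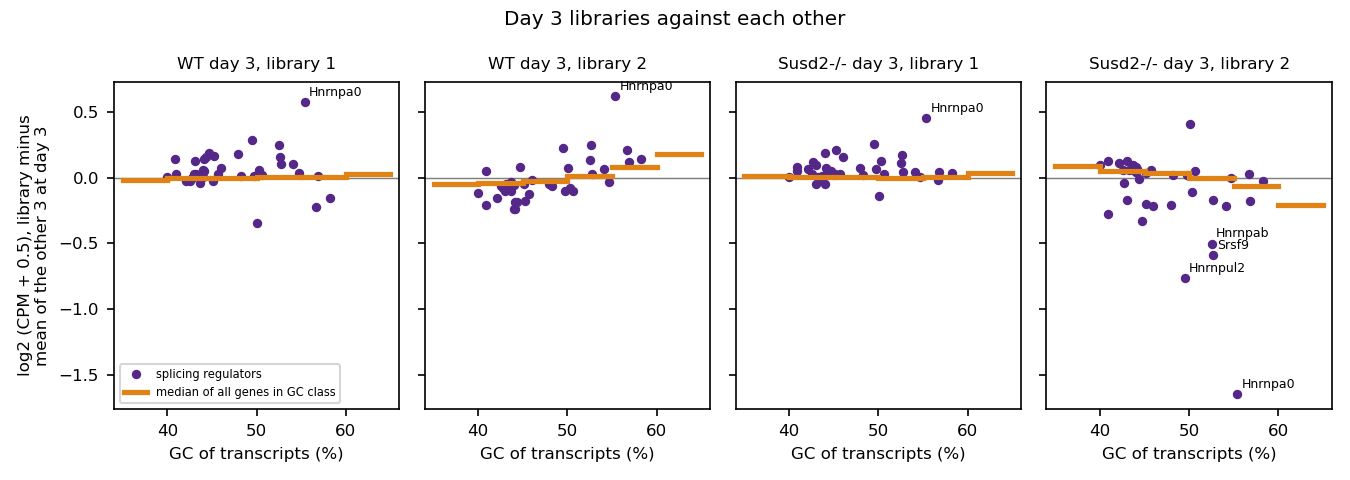
Each point is 1 of the 37 splicing regulators in 1 day 3 library, with the GC content of its transcripts (%) on the x axis and, on the y axis, its log2(CPM + 0.5) minus the mean of the other 3 day 3 libraries; bars are medians of all genes in a GC class. In Susd2-/- library 2 Hnrnpa0 lies 1.65 below the other libraries, and Hnrnpul2, Srsf9 and Hnrnpab are the next lowest.

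The first question was how the splicing regulators of these cells changed between untreated and stimulated cells. In WT, 26 of the 37 genes were higher at day 3 and 6 were lower at an adjusted p under 0.05 (edgeR), and in Susd2-/- 22 were higher and 7 lower. The background of such calls was high: over all genes tested 36.2% were higher and 39.0% lower in WT, and 36.7% and 39.7% in Susd2-/-. Among high-level genes the shares were 52.9% and 35.9% in WT and 52.2% and 37% in Susd2-/-. The share of higher calls in the set was 70.3% in WT and 59.5% in Susd2-/-, the latter near that of the high-level genes, and the share of lower calls was 16.2% and 18.9%. The median log2 change of the set was 0.66 in WT and 0.46 in Susd2-/-, beside -0.14 and -0.12 over all genes. The hnRNPs, SR proteins and Tra2 proteins rose for the most part, and the 4 Clk kinases fell in both genotypes. By libraries alone, the day 3 values lay wholly above the day 0 values for 29 of the 37 genes and wholly below for 6 in WT (41.4% and 46.9% of all genes). In Susd2-/- these counts were 24 and 9 (41.8% and 46.8% of all genes). Leaving out any 1 of the 8 libraries kept all 32 WT calls and 28 of the 29 Susd2-/- calls, Hnrnph3 being the exception. A group left with 1 library, here and wherever a library is left out, is assumed to vary like the other groups, which supply the spread. With library totals in place of TMM scaling the median of all genes moved by -0.18 in WT and -0.20 in Susd2-/-. Under that scaling 12 rather than 7 genes of the set were lower in Susd2-/-, beside 44.7% rather than 39.7% of all genes. The 5 added were Hnrnpa3, Hnrnph1, Srsf6, Srsf11 and Tra2a, of which the last 2 were slightly above 0 with TMM. Clk1 to Clk4, Srsf5, Srsf12 and Hnrnph3 were lower in Susd2-/- under both scalings.

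The 37 genes together held 1.19% and 1.20% of the counts of the WT libraries at day 0 and 1.97% and 1.85% at day 3. In Susd2-/- the shares were 1.43% and 1.46% at day 0 and 1.95% and 1.77% at day 3. Summed CPM was 7153 ± 47.7 for the hnRNPs in WT at day 0 and 15391 ± 901.7 at day 3 (SD, n = 2). For the SR proteins the sums were 2960.0 ± 18.1 and 4228 ± 113, for the Tra2 proteins 412.6 ± 4.05 and 629.6 ± 14.9, and for the Clk kinases 774.3 ± 0.13 and 261.8 ± 7.65. In Susd2-/- the hnRNP sum went from 8468 ± 64.1 to 14487 ± 1501 (15549 in library 1 and 13426 in library 2), the SR sum from 3398 ± 7.56 to 4361 ± 42.4, the Tra2 sum from 533.6 ± 1.1 to 648.6 ± 12.9, and the Clk sum from 943.4 ± 3.26 to 274.6 ± 3.23. With 2 libraries a group an exact permutation test cannot go below p = 0.333, so the sums are given without a test. In such bulk libraries fewer cells of a type and less RNA per cell cannot be told apart.

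Markers of several cell types were also lower at day 3, whereas those of plasma cells were split. Of all genes tested 39% were called lower in WT and 39.7% in Susd2-/-, and 36.2% and 36.7% higher. The 7 CD8 T cell markers summed to 5006 ± 37.5 CPM at day 0 and 2508 ± 27.8 at day 3 in WT, and to 4268 ± 208 and 2490 ± 65.7 in Susd2-/-, and all 7 fell in both genotypes. Of the 14 monocyte and macrophage markers 13 fell in WT (sum 255.5 ± 6.26 to 47.4 ± 3.37 CPM) and 14 in Susd2-/- (279.04 ± 14.0 to 42.3 ± 0.10). At day 3 the defining macrophage marker Adgre1 had 0 counts in all 4 libraries. The 10 B cell markers summed to 536.5 ± 6.75 and 264.0 ± 4.37 CPM in WT and to 638.9 ± 46.0 and 285.9 ± 8.27 in Susd2-/-. Of these 7 were lower and 1 higher in WT, and 9 were lower and 0 higher in Susd2-/-. All 4 CD4 T cell markers fell in both genotypes. The NK cell sum went from 587.2 ± 5.25 to 402.1 ± 3.46 CPM in WT and from 464.98 ± 7.24 to 376.5 ± 24.4 in Susd2-/-, with 6 of 7 lower in each. The part of these markers in the day 3 changes was not tested.

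**Figure D2:**
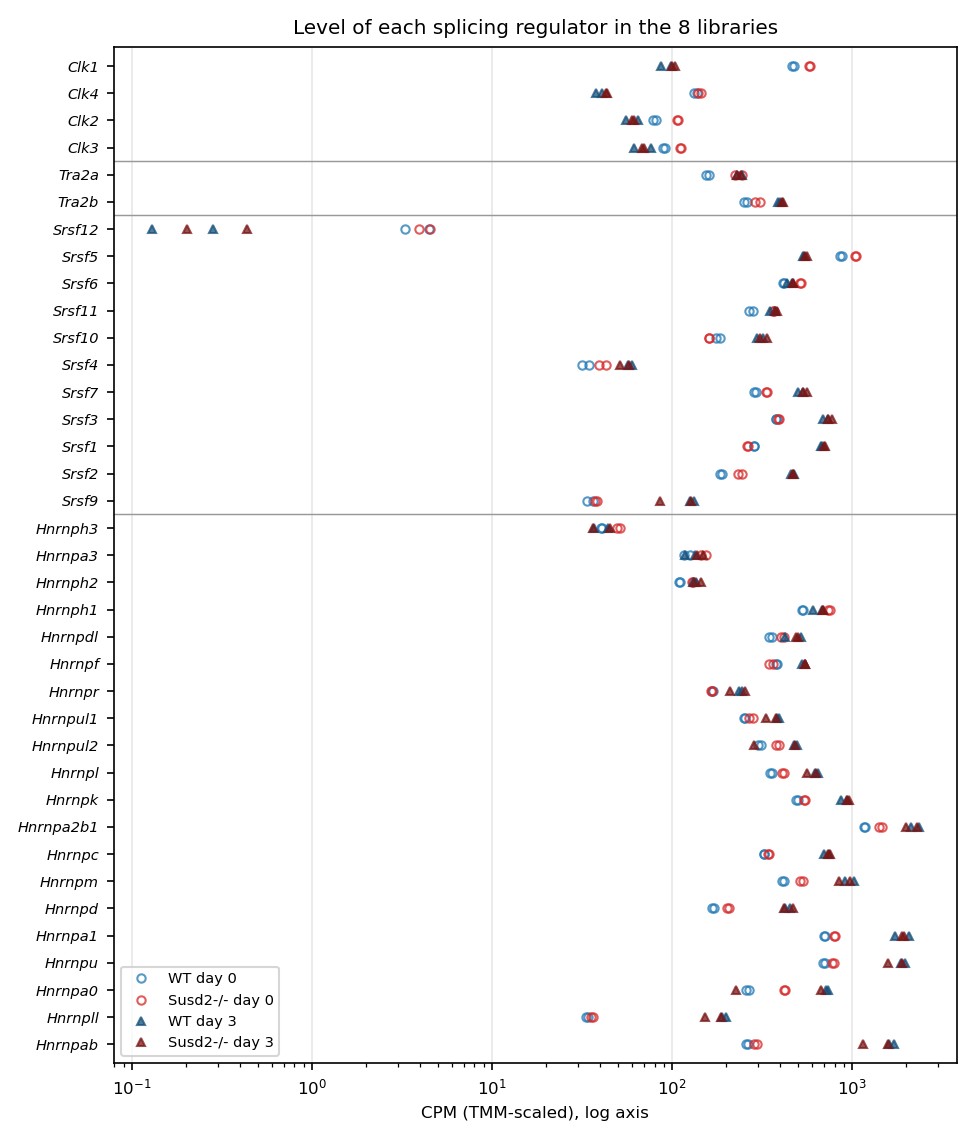
Each row is 1 of the 37 genes, ordered within its class by the change at day 3 in WT, and each mark is its CPM in 1 library on a log axis; open circles are day 0 libraries and triangles are day 3 libraries, with WT in blue and Susd2-/- in red. Clk marks of day 3 lie to the left of those of day 0, whereas most hnRNP and SR marks of day 3 lie to the right.

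The Clk kinases were the class that fell as a whole. Clk1 had 474 and 464 CPM in WT and 587 and 577 in Susd2-/- at day 0. Clk1 then had 98.8 and 87.2 in WT and 99.7 and 104 in Susd2-/- at day 3. The day 3 libraries of both genotypes lay far below every day 0 library, with a log2 change of -2.33 ± 0.07 (SE) in WT (adjusted p = 2.2e-16) and -2.52 ± 0.07 in Susd2-/- (adjusted p = 7.78e-17). Clk4, the relative closest to Clk1, measured 133 and 138 CPM at day 0 in WT and 140.0 and 144 at day 0 in Susd2-/-. Clk4 at day 3 measured 40.7 and 38 in WT and 42.8 and 43.7 in Susd2-/-. Its groups did not overlap between the days, and its log2 change was -1.78 ± 0.07 in WT and -1.72 ± 0.07 in Susd2-/- (adjusted p = 2.03e-14 and 2.72e-14).

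Clk2 and Clk3 fell by less. Clk2 stood at 78.7 and 81.6 CPM in the WT libraries of day 0 and at 109 and 107 in those of Susd2-/-. Clk2 at day 3 was at 55.8 and 65.1 in WT and 61.7 and 59.7 in Susd2-/-. Its log2 change was -0.41 ± 0.08 in WT and -0.83 ± 0.08 in Susd2-/- (adjusted p = 0.000102 and 8.8e-09). Clk3 had 89.4 and 91.3 CPM in WT and 110.5 and 113 in Susd2-/- at day 0. Clk3 then had 61.1 and 76.9 in WT and 68.2 and 69.7 in Susd2-/- at day 3. Its log2 change was -0.39 ± 0.09 in WT and -0.69 ± 0.09 in Susd2-/- (adjusted p = 0.00055 and 7.26e-07). At the level of CPM per kb of exon, Clk1 was the most abundant of the 4 kinases at day 0 in WT (57.6, against 23.3 for Clk4, 15.1 for Clk2 and 10.7 for Clk3), and at day 3 Clk1 and Clk2 stood close together (11.4 and 11.4), a difference smaller than the spread between libraries.

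Of the 11 SR proteins, 8 rose and 2 fell in WT at day 3, and 7 rose and 2 fell in Susd2-/-. These are 72.7% and 63.6% higher, where 52.9% and 52.2% of the high-level genes were. Srsf9, one of the smaller SR proteins with a short RS tail, had the steepest rise. Srsf9 measured 36.6 and 33.9 CPM at day 0 in WT and 38.4 and 37.5 at day 0 in Susd2-/-. Srsf9 at day 3 measured 126 and 132 in WT and 127 and 85.4 in Susd2-/-. Every day 3 library was above every day 0 library, and the log2 change was 1.87 ± 0.19 in WT (adjusted p = 0.000107) and 1.48 ± 0.18 in Susd2-/- (adjusted p = 0.000347), the latter with library 2 at the lower value. Srsf2, which encodes SC35, the classical component of nuclear speckles, stood at 190.4 and 184 CPM in the WT libraries of day 0 and at 245 and 234 in those of Susd2-/-. Srsf2 at day 3 was at 477 and 460.0 in WT and 469.7 and 467 in Susd2-/-. Its log2 change was 1.32 ± 0.06 in WT and 0.97 ± 0.06 in Susd2-/- (adjusted p = 1.55e-13 and 1.56e-11).

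Srsf1, the founding SR protein and a shuttling regulator of splicing and translation, had 285 and 286 CPM in WT and 260.1 and 264 in Susd2-/- at day 0. Srsf1 then had 683 and 675 in WT and 701 and 705 in Susd2-/- at day 3. Its log2 change was 1.25 ± 0.06 in WT and 1.42 ± 0.06 in Susd2-/- (adjusted p = 1.74e-13 and 2.44e-14). Srsf3, the smallest SR protein and, with Srsf7, an adaptor for mRNA export, measured 379.7 and 378 CPM at day 0 in WT and 393 and 389 at day 0 in Susd2-/-. Srsf3 at day 3 measured 734 and 690.0 in WT and 734 and 770.2 in Susd2-/-. Srsf7 stood at 287 and 293 CPM in the WT libraries of day 0 and at 332 and 339 in those of Susd2-/-. Srsf7 at day 3 was at 536 and 504 in WT and 531 and 561 in Susd2-/-. In WT the log2 change was 0.91 ± 0.06 for Srsf3 and 0.84 ± 0.06 for Srsf7, with groups that did not overlap, and both also rose in Susd2-/- (0.94 ± 0.06 and 0.70 ± 0.06). Srsf10, an SR protein that acts as a splicing repressor when dephosphorylated, had 185 and 176 CPM in WT and 161 and 161 in Susd2-/- at day 0. Srsf10 then had 319 and 299 in WT and 307 and 336 in Susd2-/- at day 3. It rose by 0.77 ± 0.06 in WT and 1.00 ± 0.07 in Susd2-/- on the log2 scale. Srsf4 measured 34.8 and 31.6 CPM at day 0 in WT and 39.2 and 42.8 at day 0 in Susd2-/-. Srsf4 at day 3 measured 56.8 and 60.03 in WT and 57.6 and 51.5 in Susd2-/-. Its rise was 0.82 ± 0.09 in WT and 0.41 ± 0.09 in Susd2-/- (adjusted p = 1.03e-07 and 0.00034).

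The other 4 SR genes went another way or moved little. Srsf5, which per kb of exon was the second most abundant of the 37 at day 0 in WT (219 CPM per kb), stood at 862 and 884 CPM in the WT libraries of day 0 and at 1054 and 1035 in those of Susd2-/-. Srsf5 at day 3 was at 537 and 538 in WT and 551 and 565 in Susd2-/-. It fell in both genotypes, with a log2 change of -0.70 ± 0.06 in WT and -0.90 ± 0.06 in Susd2-/- (adjusted p = 1.1e-09 and 2.16e-11), and stood at rank 11 of 37 per kb at day 3. Srsf12, the least abundant of the set, had 3.28 and 4.47 CPM in WT at day 0 and 0.13 and 0.28 at day 3, and in Susd2-/- 3.92 and 4.51 at day 0 and 0.20 and 0.43 at day 3. Its log2 change was -4.23 ± 0.46 in WT and -3.63 ± 0.41 in Susd2-/-, resting on 4, 8 (WT) and 6, 22 (Susd2-/-) counts in the day 3 libraries. Srsf11 had 269.5 and 281 CPM in WT and 365 and 367 in Susd2-/- at day 0. Srsf11 then had 373 and 352 in WT and 383 and 375 in Susd2-/- at day 3. It rose in WT by 0.40 ± 0.06 (adjusted p = 6.09e-06) and was not called in Susd2-/- (0.05 ± 0.06, adjusted p = 0.435). Srsf6 was called in neither genotype, at 0.11 ± 0.06 in WT and -0.13 ± 0.06 in Susd2-/- on the log2 scale (adjusted p = 0.0806 and 0.0516).

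**Figure D3:**
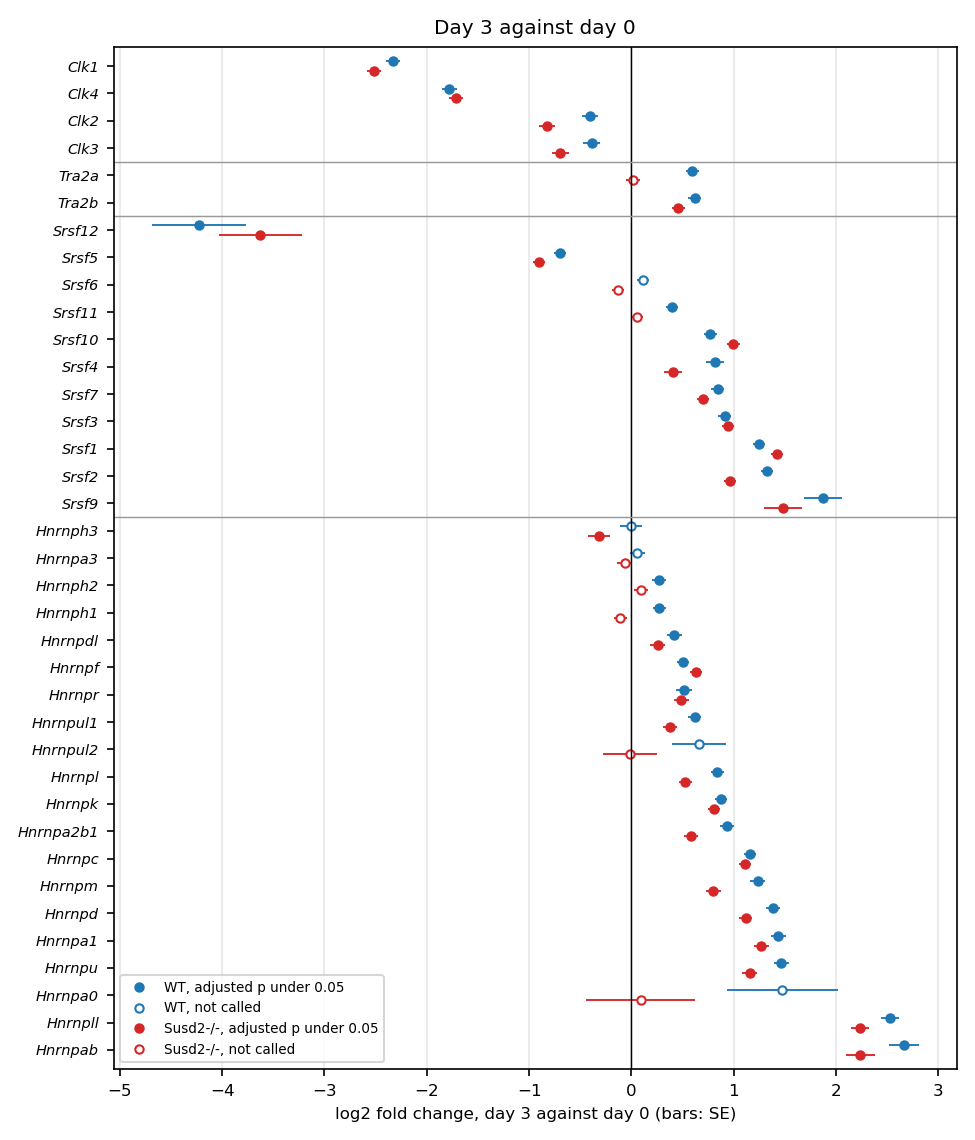
Log2 fold change at day 3 against day 0 (x axis) for each of the 37 genes (y axis), in WT (blue) and Susd2-/- (red), with bars for the standard error; filled points have an adjusted p under 0.05. The 4 Clk kinases, Srsf5 and Srsf12 lie to the left of 0 in both genotypes, and Hnrnpab and Hnrnpll lie farthest to the right.

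Among the 20 hnRNPs, 16 rose and none fell in WT at day 3, and 14 rose and 1 fell in Susd2-/-. Of the high-level genes 52.9% rose and 35.9% fell in WT, and 52.2% rose and 37% fell in Susd2-/-. Hnrnpab, a single-strand nucleic acid binding protein of the same group as Hnrnpd, had the largest fitted rise, followed within its error by Hnrnpll. Hnrnpab measured 257 and 265 CPM at day 0 in WT and 296 and 284 at day 0 in Susd2-/-. Hnrnpab at day 3 measured 1706 and 1606 in WT and 1587 and 1153 in Susd2-/-. Its log2 change was 2.66 ± 0.14 in WT (adjusted p = 1.51e-06) and 2.24 ± 0.14 in Susd2-/- (adjusted p = 3.87e-06), and per kb of exon it went from rank 6 to rank 2 of the 37 in WT. Hnrnpll stood at 33.5 and 34 CPM in the WT libraries of day 0 and at 35.6 and 36.4 in those of Susd2-/-. Hnrnpll at day 3 was at 201 and 189 in WT and 187 and 153 in Susd2-/-. All day 3 libraries were above all day 0 libraries, with a log2 change of 2.53 ± 0.09 in WT and 2.24 ± 0.09 in Susd2-/- (adjusted p = 4.78e-15 and 2.39e-14).

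Hnrnpa1, an antagonist of Srsf1 at many exons, had 708 and 695 CPM in WT and 800.3 and 792 in Susd2-/- at day 0. Hnrnpa1 then had 2069 and 1728 in WT and 1946 and 1892 in Susd2-/- at day 3. It was the most abundant of the 37 per kb of exon in WT at both days (222 and 602 CPM per kb), and rose by 1.44 ± 0.07 in WT and 1.27 ± 0.07 in Susd2-/- on the log2 scale. Hnrnpu, a nuclear scaffold protein that binds chromatin-associated RNA, measured 694 and 704 CPM at day 0 in WT and 771 and 796 at day 0 in Susd2-/-. Hnrnpu at day 3 measured 1972 and 1883 in WT and 1907 and 1586 in Susd2-/-. It rose by 1.46 ± 0.07 in WT and 1.16 ± 0.07 in Susd2-/-. Hnrnpd, also called AUF1, a regulator of the decay of mRNAs with AU-rich elements, stood at 166 and 170.3 CPM in the WT libraries of day 0 and at 201 and 208 in those of Susd2-/-. Hnrnpd at day 3 was at 455 and 423 in WT and 470.0 and 417 in Susd2-/-. Its change was 1.38 ± 0.07 in WT and 1.12 ± 0.07 in Susd2-/-. Its neighbour Hnrnpdl rose by only 0.42 ± 0.08 and 0.26 ± 0.08.

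Hnrnpc, a core hnRNP that binds runs of uridines and keeps cryptic exons from the splicing machinery, had 324 and 323 CPM in WT and 342 and 347 in Susd2-/- at day 0. Hnrnpc then had 743 and 699.9 in WT and 735 and 755 in Susd2-/- at day 3. Hnrnpm measured 418 and 410.5 CPM at day 0 in WT and 512 and 534 at day 0 in Susd2-/-. Hnrnpm at day 3 measured 1031 and 917 in WT and 978 and 842 in Susd2-/-. The log2 rise in WT was 1.16 ± 0.06 for Hnrnpc and 1.23 ± 0.07 for Hnrnpm (adjusted p = 9.18e-13 and 3.75e-11), and in Susd2-/- 1.11 ± 0.06 and 0.80 ± 0.07. Hnrnpa2b1, with a role in RNA transport besides splicing, stood at 1166 and 1183 CPM in the WT libraries of day 0 and at 1419 and 1464 in those of Susd2-/-. Hnrnpa2b1 at day 3 was at 2346 and 2140.4 in WT and 2305 and 2006 in Susd2-/-. It rose by 0.93 ± 0.07 in WT and 0.58 ± 0.07 in Susd2-/-. Hnrnpl, whose protein silences the variable exons of Ptprc, had 359 and 350.2 CPM in WT and 419 and 407 in Susd2-/- at day 0. Hnrnpl then had 648 and 623 in WT and 628 and 563 in Susd2-/- at day 3. Its rise of 0.84 ± 0.06 in WT was much smaller than that of its relative Hnrnpll, and it was 0.53 ± 0.06 in Susd2-/-. Hnrnpk, a poly(C)-binding protein, measured 501 and 490.1 CPM at day 0 in WT and 550.1 and 539 at day 0 in Susd2-/-. Hnrnpk at day 3 measured 944 and 871 in WT and 944 and 958 in Susd2-/-. It rose by 0.87 ± 0.06 in WT and 0.80 ± 0.06 in Susd2-/-.

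The remaining hnRNPs that rose in both genotypes did so by smaller amounts: Hnrnpul1 by 0.62 ± 0.07 in WT, Hnrnpr by 0.51 ± 0.08 and Hnrnpf by 0.50 ± 0.06 on the log2 scale. Hnrnph1 and Hnrnph2, which with Hnrnpf bind runs of guanines, each had a log2 change of 0.27 in WT (adjusted p = 0.000752 and 0.00106), which was not called when library totals replaced TMM scaling (0.09 for each, adjusted p = 0.189 and 0.22). In Susd2-/- neither was called. Hnrnph3 had no call in WT (-0.0055 ± 0.11) and was lower in Susd2-/- (-0.32 ± 0.10, adjusted p = 0.0114), a call lost without either day 0 Susd2-/- library or without Susd2-/- day 3 library 2 (adjusted p = 0.263 in the last case). Hnrnpa3 was called in neither genotype (0.06 ± 0.07 and -0.07 ± 0.07).

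For Hnrnpa0 and Hnrnpul2 the day 3 changes turned on Susd2-/- day 3 library 2. Without either library of that group the other stands alone in it, and the p-values of its change rest on the spread of the other groups. Hnrnpa0 stood at 257 and 267 CPM in the WT libraries of day 0 and at 422 and 421 in those of Susd2-/-. Hnrnpa0 at day 3 was at 718 and 735 in WT and 675 and 226 in Susd2-/-. With all libraries it was called in no comparison (day 3 against day 0 in WT 1.47 ± 0.54, adjusted p = 0.0649). Without Susd2-/- day 3 library 2 its log2 change at day 3 was 1.48 in WT and 0.70 in Susd2-/-, the latter for 1 library (adjusted p = 6.86e-16 and 5.53e-09), and was 0.68 higher in Susd2-/- at day 0 (adjusted p = 2.76e-08). Without Susd2-/- day 3 library 1 instead, the change of the single library left was -0.89 (adjusted p = 2.06e-10). Hnrnpul2 had 299 and 314 CPM in WT and 380.1 and 394 in Susd2-/- at day 0. Hnrnpul2 then had 492 and 476 in WT and 484 and 284 in Susd2-/- at day 3. Without library 2 its log2 change was 0.67 in WT and, for the 1 library left, 0.34 in Susd2-/- (adjusted p = 6.45e-10 and 0.000146), whereas with all libraries it was at 0.66 ± 0.26 and -0.01 ± 0.26 with no call.

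Tra2a and Tra2b both rose in WT. Tra2a measured 154 and 159.8 CPM at day 0 in WT and 224 and 244 at day 0 in Susd2-/-. Tra2a at day 3 measured 244 and 230.0 in WT and 231 and 242 in Susd2-/-. In WT its log2 change was 0.60 ± 0.06 (adjusted p = 9.17e-08). In Susd2-/-, where the day 0 libraries already stood at the day 3 level under TMM scaling, it was 0.02 ± 0.06 (adjusted p = 0.83). With library totals in place of TMM scaling Tra2a was called lower at day 3 in Susd2-/-. Tra2b stood at 262 and 250.03 CPM in the WT libraries of day 0 and at 310.2 and 289 in those of Susd2-/-. Tra2b at day 3 was at 396 and 389 in WT and 409 and 415 in Susd2-/-. It rose by 0.62 ± 0.06 in WT and 0.46 ± 0.06 in Susd2-/- (adjusted p = 1.95e-08 and 1.11e-06).

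**Figure D4:**
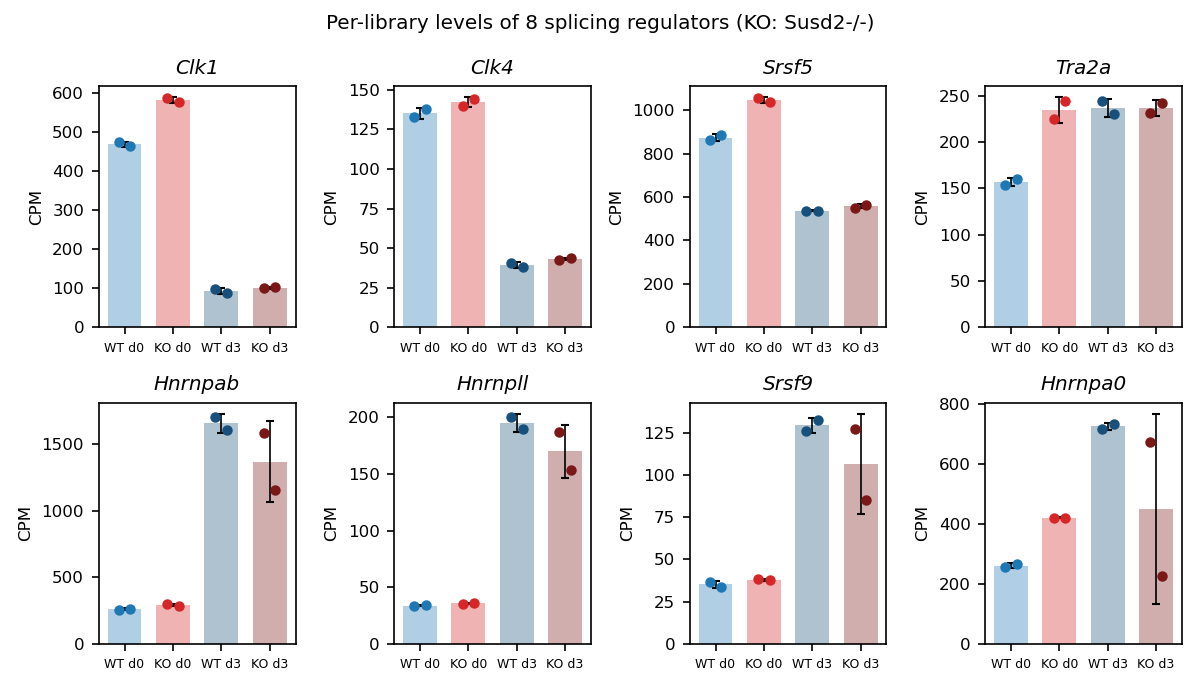
CPM (y axis, from 0) of 8 of the genes in each group (x axis; d0 and d3 are day 0 and day 3, KO is Susd2-/-); points are libraries, bars the mean and error bars the SD of 2 libraries. Clk1, Clk4 and Srsf5 fall at day 3, Hnrnpab, Hnrnpll and Srsf9 rise, Tra2a is low only in the WT libraries of day 0, and 1 of the Susd2-/- day 3 libraries is low in Hnrnpa0.

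By call, 22 genes (59.5%) were higher and 6 (16.2%) lower at day 3 in both genotypes, which rest on separate libraries. Of all genes tested 32.5% were higher and 33.7% lower in both, and of the high-level genes 49% and 33.1%. Hnrnph1, Hnrnph2, Srsf11 and Tra2a were called higher in WT alone and Hnrnph3 lower in Susd2-/- alone. A call in 1 genotype alone does not show that the changes differ, and in the interaction test given further on Hnrnph2 (-0.18 ± 0.09, adjusted p = 0.232) and Hnrnph3 (-0.31 ± 0.15, adjusted p = 0.194) were not called. Called in WT and at least 2-fold higher were Hnrnpa1, Hnrnpab, Hnrnpc, Hnrnpd, Hnrnpll, Hnrnpm, Hnrnpu, Srsf1, Srsf2 and Srsf9. Called in WT and at least 2-fold lower were Clk1, Clk4 and Srsf12. The share of all genes past this cut was not counted, so the names are no measure of the set.

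The next comparison asked how these genes differed between the genotypes in untreated cells. At day 0, 20 of the 37 genes were higher in Susd2-/- and none was lower at an adjusted p under 0.05. Here 11.5% of all genes tested were higher and 12.1% lower (20.6% and 18.4% of the high-level genes). The called genes were 3 of the 4 Clk kinases, both Tra2 genes, 6 of the 11 SR proteins and 9 of the 20 hnRNPs. The median log2 difference of the set was 0.23, beside 0.0077 over all genes. In the set 33 of the 37 differences were above 0, and 25 of the 37 had an unadjusted p under 0.05. Of all 16057 genes 8178 were above 0 and 5539 had such a p. Of the 5920 high-level genes 3216 were above 0 and 3033 had such a p. The changes were small: the largest among the called genes was 0.58. The count of higher calls was 7 without WT library 3, 10 without WT library 4, 12 without Susd2-/- library 3 and 13 without Susd2-/- library 4. The share of all genes called higher also fell, to 5.15%, 5.5%, 6.17% and 6.44% in that order. With the libraries of each genotype counted as 1 the count was 3 (Hnrnph1, Srsf11 and Tra2a) and the share of all genes 2.03%; day 0 then has 1 sample against 1, and the day 3 libraries alone supply the spread. Hnrnpd and Srsf6 lost the call without WT library 3 alone and Hnrnpm without WT library 4 alone. Clk1, Clk2, Hnrnph1, Srsf2, Srsf11 and Tra2a were called whichever single library was left out.

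Tra2a had the largest called difference, with 154 and 160 CPM in WT at day 0 against 224 and 244 in Susd2-/-, a log2 difference of 0.58 ± 0.06 (adjusted p = 3.93e-06). Hnrnph1 was next, with 529 and 537 CPM in WT and 738 and 752 in Susd2-/-, a difference of 0.48 ± 0.06 (adjusted p = 2.27e-05). In neither gene did the groups overlap. Clk2 differed by 0.43 ± 0.08 (adjusted p = 0.000494), Srsf11 by 0.41 ± 0.06 (adjusted p = 5.58e-05), Srsf2 by 0.36 ± 0.06 (adjusted p = 0.000253) and Clk1 by 0.31 ± 0.06 (adjusted p = 0.00152). Clk3 was higher by 0.30 ± 0.09 (adjusted p = 0.0143), while Clk4, at 133 and 138 CPM in WT and 140.0 and 144 in Susd2-/-, was not called (0.07 ± 0.07, adjusted p = 0.486).

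The other called SR genes were Srsf4 (0.30 ± 0.09), Srsf6 (0.30 ± 0.06), Srsf5 (0.26 ± 0.06) and Srsf7 (0.21 ± 0.06), and Tra2b was 0.23 ± 0.06 higher. Srsf1 and Srsf10 leaned the other way without a call (-0.12 ± 0.06 and -0.17 ± 0.06); in each, both Susd2-/- libraries were below both WT libraries. Srsf6 stood at 414 and 420.4 CPM in WT and 511 and 518 in Susd2-/-. Among the hnRNPs the called differences after Hnrnph1 were Hnrnpm (0.34 ± 0.07), Hnrnph3 (0.32 ± 0.11), Hnrnpa2b1 (0.30 ± 0.07), Hnrnpa3 (0.30 ± 0.07), Hnrnpd (0.28 ± 0.07), Hnrnph2 (0.24 ± 0.07), Hnrnpdl (0.23 ± 0.08) and Hnrnpl (0.22 ± 0.06). The paralogs Hnrnph1, Hnrnph2 and Hnrnph3 were all higher, whereas Hnrnpf, of the same family, was not called (-0.10 ± 0.06). Hnrnpab and Hnrnpll, with the steepest rise at day 3, were not called at day 0 (0.15 ± 0.14 and 0.09 ± 0.09).

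By libraries alone, the Susd2-/- values of day 0 lay wholly above the WT values for 32 of the 37 genes and wholly below for 3, where 33.6% of all genes lay above and 31.4% below. The summed CPM of the set was 11300.4 ± 61.7 in WT and 13343 ± 52.2 in Susd2-/- (SD, n = 2).

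Other features of the day 0 libraries differed between the genotypes in the same comparison, where 11.5% of all genes tested were called higher and 12.1% lower. Among the high-level genes these shares were 20.6% and 18.4%. The summed CPM of 26 immediate early genes was 3901 and 3927 in the WT libraries and 7457 and 6825 in the Susd2-/- libraries, and 21 of the 26 were called higher in Susd2-/- and none lower. The 14 monocyte and macrophage markers summed to 251.1 and 260.0 CPM in WT and 289.0 and 269.1 in Susd2-/-, with 8 called higher and 1 lower. Csf1r, a defining macrophage marker, stood at 9.59 and 9.73 CPM in WT and 23.3 and 22.7 in Susd2-/-. The 7 CD8 T cell markers summed to 5033 and 4980 CPM in WT and 4415 and 4121 in Susd2-/-, with 4 called lower, and the 7 NK cell markers to 590.9 and 583.5 against 470.1 and 459.9, with 3 called lower. The 10 B cell markers summed to 531.8 and 541.3 CPM in WT and 671.4 and 606.4 in Susd2-/-, with 2 called higher. Most of that sum was Ighm, an immunoglobulin heavy chain gene, at 489.6 and 496.6 CPM in WT and 623.4 and 561.6 in Susd2-/-, while the B cell marker Ms4a1 was at or below 1.58 CPM. Of the 7 CD8 T cell markers 6 were lower in Susd2-/- and 1 higher by sign alone, and Cd8a itself stood between 1196 and 1256 CPM in all day 0 libraries. The 4 CD4 T cell markers summed to 55.3 and 56.5 CPM in WT and 69.8 and 77.9 in Susd2-/-. All 4 were higher by sign and 1 was called, though Cd4 itself was at or below 0.41 CPM. Of 5 plasma cell markers tested 2 were called higher and 2 lower, and of 4 dendritic cell markers 1 and 1. Of 2 neutrophil markers 1 was called higher, and of 2 erythroid markers 1 was called lower. Against the other 3 libraries of day 0, genes under 40% GC were lower in Susd2-/- library 3 and library 4 (medians -0.18 and -0.14) and higher in WT libraries 3 and 4 (0.13 and 0.18). Between 40% and 45% GC the medians were -0.07 and -0.04 in Susd2-/- and 0.06 and 0.06 in WT. Between 45% and 50% GC they were -0.01 and -0.02 in Susd2-/- and 0.02 and 0.03 in WT. The median GC of the set was 45.2%, below the 51.0% of the protein-coding genes tested. The part of these features in the result was not tested.

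**Figure D5:**
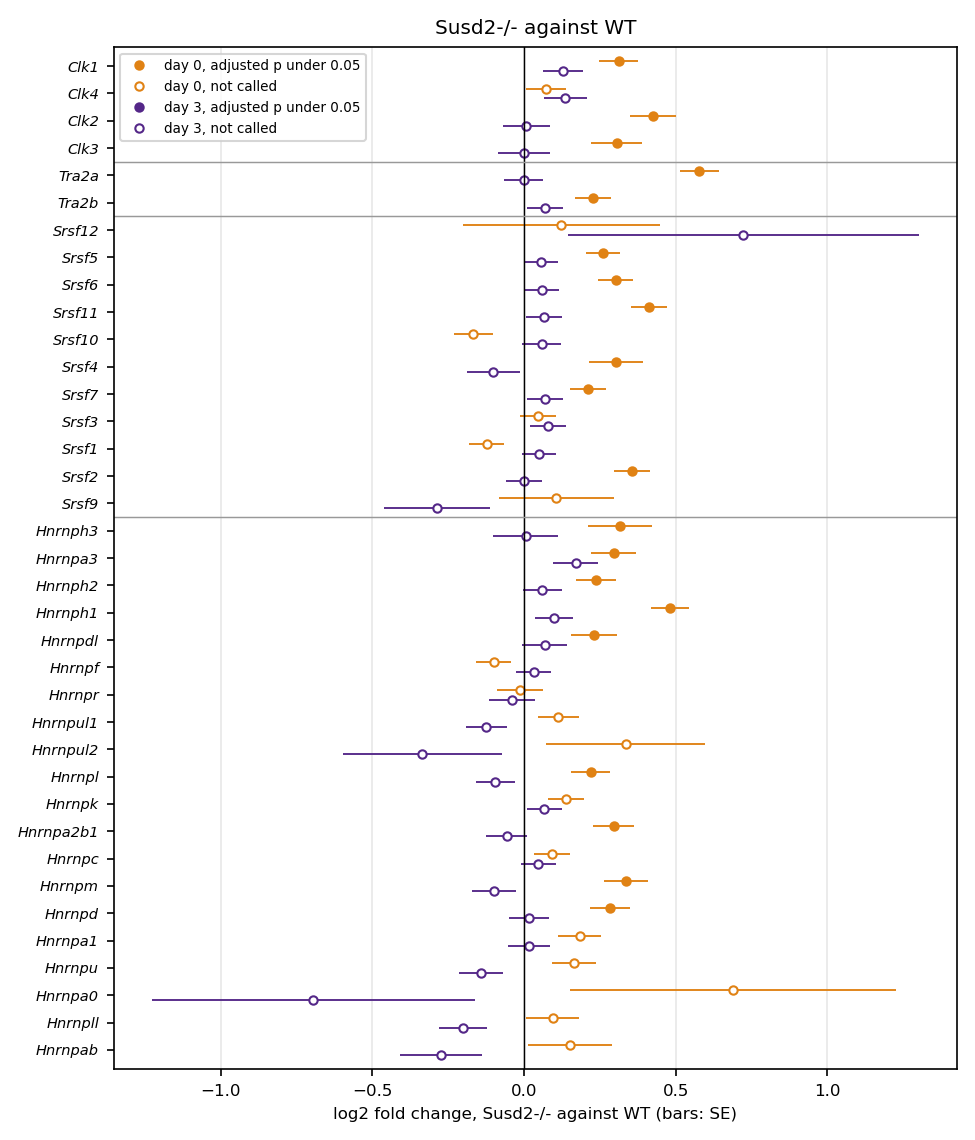
Log2 fold change of Susd2-/- against WT (x axis) at day 0 (orange) and day 3 (purple) for the 37 genes (y axis), with bars for the standard error; filled points have an adjusted p under 0.05. At day 0 filled points lie only to the right of 0, and at day 3 no point is filled.

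At day 3 none of the 37 genes was called between the genotypes by edgeR, DESeq2 or limma voom, where 0.137% of all genes tested were called in either direction. By edgeR 2 of the 37 had an unadjusted p under 0.05, Hnrnpll (-0.20 ± 0.08) and Hnrnpa3 (0.17 ± 0.07), with adjusted p = 0.526 and 0.583. The median log2 difference of the set was 0.016, with 23 differences above 0 and 14 below. Of all 16057 genes 1267 had an unadjusted p under 0.05, 8002 were above 0 and 7807 below. Susd2-/- values lay wholly above WT for 11 genes and wholly below for 4, against 17.4% and 16.3% of all genes. Tra2a stood at 244 and 230.0 CPM in WT and 231 and 242 in Susd2-/-, a difference of -0.0016 ± 0.06, and Srsf2 at 477 and 460.0 and 469.7 and 467. The spread between libraries was wider at this day (biological coefficient of variation 10.0%, against 5.35% at day 0). Without Susd2-/- library 1, which leaves the library that stood apart alone in its group, 6 genes were called lower (Hnrnpa0, Hnrnpab, Hnrnpll, Hnrnpu, Hnrnpul2 and Srsf9), and without library 2 none was. Each is a comparison of 1 Susd2-/- library with the WT libraries, with the spread taken from the other groups; 2.14% and 0.0293% of all genes were called lower.

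The interaction of genotype and day, the change from day 0 to day 3 in Susd2-/- minus that in WT, was negative at an adjusted p under 0.05 for 9 of the 37 genes and positive for none, where 6.88% of all genes were negative and 6.6% positive (13.8% and 11.6% of high-level genes). Of the 9, Clk2 is a kinase, Srsf2, Srsf4 and Srsf11 are SR proteins, Hnrnpa2b1, Hnrnph1, Hnrnpl and Hnrnpm are hnRNPs, and the last is Tra2a; each was also called higher in Susd2-/- at day 0, a contrast that shares libraries with this one. Tra2a had an interaction of -0.58 ± 0.09 (adjusted p = 0.000355), Hnrnph1 of -0.38 ± 0.09 (adjusted p = 0.0078), Srsf2 of -0.36 ± 0.08 (adjusted p = 0.00795) and Srsf11 of -0.35 ± 0.08 (adjusted p = 0.00961). Tra2a alone was called whichever library was left out, with adjusted p between 5.88e-05 and 0.0108, and it was 0.0432 with the day 0 libraries of each genotype counted as 1. Leaving out a day 0 library gave 1 (WT library 3), 2 (WT library 4), 2 (Susd2-/- library 3) or 5 (Susd2-/- library 4), where 3.25%, 3.26%, 3.33% and 3.96% of all genes were negative. Leaving out a day 3 library also left 1 library in its group. The median interaction of the set was -0.14 without WT day 3 library 1 and -0.25 without WT day 3 library 2. Without Susd2-/- day 3 library 1 it was -0.29, and without Susd2-/- day 3 library 2 it was -0.17. Over all genes these medians were 0.065, 0.063, -0.023 and -0.010 in that order. With all libraries the median was -0.24 for the set and -0.0073 over all genes. Without Susd2-/- day 3 library 2 the interaction was -0.79 for Hnrnpa0 and -0.33 for Hnrnpul2. Clk1, Clk3 and Clk4 had no call (-0.18 ± 0.09, -0.31 ± 0.12 and 0.06 ± 0.10).

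Other splicing genes give the setting of these changes. Their counts stand beside the high-level genes, of which 52.9% rose and 35.9% fell at day 3 in WT, and 20.6% were higher and 18.4% lower in Susd2-/- at day 0. Of 27 tested kinases, importers and coregulators of SR proteins, 10 rose (37%) and 12 fell (44.4%) at day 3 in WT, and 14 were higher (51.9%) and 2 lower (7.41%) in Susd2-/- at day 0. Among those that fell in WT were Srpk2, a cytoplasmic SR protein kinase (log2 change -1.76), and the arginine- and serine-rich proteins Rsrp1 (-2.39) and Pnisr (-1.66), whereas Rnps1, a component of the exon junction complex, rose by 1.58. At day 0 Srrm1, a splicing coactivator (0.40), and Dyrk1a, a kinase of splicing factors (0.39), were higher in Susd2-/- and Luc7l3 was lower (-0.33). Of 35 other RNA-binding splicing regulators 25 rose (71.4%) and 8 fell (22.9%) in WT; Pcbp1 (1.79) and Ptbp1 (1.46), a repressor of exons with pyrimidine tracts, rose, and Mbnl1, the muscleblind regulator, fell (-1.51). In that list 9 genes were higher (25.7%) and 1 lower (2.86%) in Susd2-/- at day 0, with Sfpq, a paraspeckle protein, at 0.68 and the cold-inducible Rbm3 at -0.67.

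Of 48 genes of the core spliceosome 11 were higher (22.9%) and 12 lower (25%) in Susd2-/- at day 0, with Sf1, which binds the branch point, at 0.52 and Snrpb2, a protein of the U2 particle, at -0.53. The difference between this list and the 37 regulators was not tested. At day 3, 45 of the 48 rose (93.8%) and 1 fell in WT, and 42 rose (87.5%) and 1 fell in Susd2-/-, Prpf31, a protein of the U4/U6 particle, by 2.40 and 2.5. Of 14 nonsense-mediated decay factors 7 rose (50%) and 5 fell (35.7%) in WT, with Rbm8a of the exon junction complex at 1.94 and the kinase Smg1 at -1.75, and 6 were higher (42.9%) and none lower in Susd2-/- at day 0. None of the 4 lists had a gene called between the genotypes at day 3. For the interaction, 6 of the 27 SR protein kinases and coregulators were negative and 2 positive, 5 of the 35 RNA-binding regulators negative and 1 positive, 7 of the 48 spliceosome genes negative and 9 positive, and 5 of the 14 decay factors negative and 1 positive, beside 13.8% negative and 11.6% positive of the high-level genes.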

How the data were processed

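Poly(A) RNA of 8 libraries was sequenced as stranded paired ends, per the labels' protocols. The authors deposited raw counts per gene symbol in 15 columns, 1 per sequencing lane; the tools in the submitters' processing notes are HISAT2 2.1.0, Subread 2.0.1, fastp 0.23.2 and SAMtools 1.10, with GRCm38 as the build. No source used here gives the annotation release or the strand setting. Lanes were summed per library (WT day 3 library 2 had 1 lane). All 4 groups were fitted together with edgeR 4.0.16 (R 4.3.3): filterByExpr (16057 genes), TMM scaling and a quasi-likelihood F test (robust) on 4 residual degrees of freedom. P-values were adjusted by Benjamini-Hochberg over all genes tested, and called, rose or fell means an adjusted p under 0.05. Levels are TMM-scaled CPM, and differences are log2 fold changes ± SE. Limma voom 3.58.1 and DESeq2 1.42.0 were alternatives. Gene lengths, GC content and transcript types came from GENCODE vM21. In every lane genes with 2 counts outnumbered those with 1 by 1.69 to 2.04 times, so counts are not independent fragments. The genes and lists were chosen with earlier results of these data known. Any gene of the set could be named; full statistics went to the Clk kinases, up to 10 called genes per direction of largest change and the 4 interaction genes of smallest p, and from the other splicing lists up to 4 called genes, or 2 where none was called, were eligible.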

Additional observations from a re-analysis of the deposited data

Results flagged for a closer look

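The genotype difference of 9 of the 37 splicing regulators differed between the days by the edgeR interaction test, where 6.88% of all genes tested and 13.8% of the high-level genes had a negative interaction and 6.6% and 11.6% a positive one. The interaction, the log2 change from day 0 to day 3 in Susd2-/- minus that in WT, was -0.58 for Tra2a (adjusted p = 0.000355), -0.43 for Hnrnpm (adjusted p = 0.00979), -0.42 for Clk2 (adjusted p = 0.0152) and -0.40 for Srsf4 (adjusted p = 0.0383). It was -0.38 for Hnrnph1 (adjusted p = 0.0078), -0.36 for Srsf2 (adjusted p = 0.00795), -0.35 for Hnrnpa2b1 (adjusted p = 0.0202), -0.35 for Srsf11 (adjusted p = 0.00961) and -0.31 for Hnrnpl (adjusted p = 0.0254). In each of the 9 genes both Susd2-/- libraries of day 0 were above both WT libraries of day 0, as in 33.6% of all genes. All 9 were also called higher at day 0 from these libraries, which the interaction shares, so this separation is no separate result. None of the 9 was called between the genotypes at day 3. Leaving out any 1 library kept the call of Tra2a alone among the 9.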

How the results depend on the processing

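The counts at day 0 and of the interaction changed most when libraries were left out; a group left with 1 library is assumed to vary like the others. With the day 0 libraries of each genotype counted as 1, 3 genes of the set were higher at day 0 and 1 had a negative interaction; leaving out 1 library at a time gave 7 to 23 and 1 to 18, with 0 to 1 lower at day 0 and 0 to 1 positive. At day 3 leaving out 1 library gave 0 to 1 higher and 0 to 6 lower in Susd2-/-. With only the libraries of the groups compared, 26 genes were higher and 3 lower at day 0 (Hnrnpf, Srsf1 and Srsf10). Of all genes then tested 18% were higher and 19.5% lower. Without the filter on low counts 4 interactions were negative and 0 positive, beside 3.15% and 4.97% of all genes. With library totals alone, 12 genes fell and 21 rose at day 3 in Susd2-/-, beside 44.7% and 32.3% of all genes. In WT the counts at day 3 stayed within 24 to 28 higher and at 6 lower under every scaling and tool tried. The shares of all genes were 32.5% to 36.4% and 37.1% to 43.6%.

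Some differences changed sign, among them small ones of Clk2 and Clk3 and wider ones of Hnrnpa0 and Hnrnpul2. For Clk2 at day 3 between the genotypes the log2 difference was -0.035 with the first lane only and -0.055 to 0.15 on leaving out a library. For Clk3 it was 0.0076 with DESeq2, 0.0079 with RLE factors, 0.0142 with library totals, 0.047 without the filter, 0.0140 with voom, 0.0051 with the replicate block and -0.11 to 0.20 on leaving out a library. For Hnrnpul2 it was -0.77 to 0.00015 on leaving out a library. For the day 3 change in Susd2-/-, Hnrnpa0 was at -0.11 with library totals, -0.17 with voom and -0.89 to 0.70 on leaving out a library, both ends called. Hnrnpul2 was at 0.051 without the filter, 0.0030 with only the groups compared, 0.0033 with the first lane only and -0.43 to 0.34 on leaving out a library. Over the 69 values of single genes that were checked, 1001 of the values under an alternative kept direction and side of the threshold, 80 lost the call, 16 gained one and 27 changed sign; the cause was not tested.

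Same-numbered libraries did not deviate together (correlation 0.0029 at day 0 and -0.08 at day 3 over 11149 genes), so numbers were not taken to pair them. With the library number as a replicate block, 20 genes were higher and 0 lower at day 0, beside 10.2% and 11% of all genes. At day 3 these counts were 0 and 0. For the interaction 10 genes were negative and 0 positive, beside 5.76% and 5.42% of all genes.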
